A study of Mus musculus with 20 samples.

Results

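The 10 keratins described here were the stress keratins Krt6a, Krt6b, Krt16 and Krt17, the simple epithelial keratins Krt7, Krt8, Krt18, Krt19 and Krt20, and Krt80. They were picked by gene symbol, and all 10 were found among the 22090 genes of the mouse skin count table, which held 51 keratin genes. RNA-seq had been performed on normal skin (NS, n = 8), actinic keratosis (AK, a precancerous lesion, n = 8) and cutaneous squamous cell carcinoma (cSCC, n = 4) to follow how normal skin passes through AK to carcinoma. The tissues were taken from 8 Hairless SKH-1 mice, all female and 7 months old when obtained, of which 4 were then irradiated with ultraviolet light and 4 were not. By the study's methods, 1 piece of NS came from each of the 8 mice, and all AK and cSCC came from the 4 irradiated mice, so the 8 AK stand for 4 mice. The labels give neither the mouse of each tissue nor which NS were irradiated. Irradiated and unirradiated NS therefore cannot be told apart, and p-values treat tissues as independent although some share a mouse.

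Keratins are the intermediate filament proteins of epithelial cells, and each filament pairs an acidic type I keratin with a basic type II keratin. Krt6a and Krt6b (type II) with Krt16 and Krt17 (type I) are kept low in resting interfollicular epidermis, are present in the hair follicle, and are induced after wounding, in hyperproliferation and in squamous tumors. Krt7 and Krt8 (type II) with Krt18, Krt19 and Krt20 (type I) belong to simple, one-layered epithelia such as those of lung and gut. In skin, Krt20 marks Merkel cells, Krt19 marks parts of the follicle and scattered basal cells, and Krt80 is a type II keratin linked to late differentiation.

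Total counts per library ranged from 1624325 to 6295575 in NS, from 867219 to 14055206 in AK and from 775750 to 7095102 in cSCC. Levels below are CPM, that is counts scaled by effective library sizes from edgeR's TMM factors. A floor of 3 counts was set as what a count of 0 is taken to allow. It corresponded to 0.225 CPM (AK replicate 10) to 3.78 CPM (AK replicate 12) on this scale. The floor is a chosen limit and not a strict maximum, and it covers counting error only. Each library held counts for all 11 keratinocyte markers, whose summed level was 14050 to 31181 CPM in NS, 16209 to 31639 CPM in AK and 4875 to 24227 CPM in cSCC. The cSCC libraries stood apart from each other. In cSCC replicate 20 the 12 lung epithelium markers summed to 36530 CPM, against 15.7 to 148 CPM in the other libraries. In cSCC replicate 21 the 9 heart muscle markers summed to 58880 CPM, and the next highest library was at 159 CPM. Haemoglobin genes took 46.8% of the counts of cSCC replicate 18. Results of the 10 keratins that rest on these libraries are also given without them. Where the number called in a gene list reported below moved without cSCC replicates 20 and 21, that number is given too. In bulk tissue, a change in the number of cells of a type and a change in RNA per cell cannot be told apart.

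The coding sequences of Krt6a (chr15:101689910-101694307, minus strand, GRCm38) and Krt6b (chr15:101676023-101680287, minus strand) were 97.8% identical over 1662 aligned bases, so part of their reads fits either gene. The stretch below, coding bases 787 to 876, is shown because it holds 12 differences, in capitals, by which reads can be assigned.
Krt6a: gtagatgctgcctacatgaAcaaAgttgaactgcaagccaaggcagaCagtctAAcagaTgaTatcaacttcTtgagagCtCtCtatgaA
Krt6b: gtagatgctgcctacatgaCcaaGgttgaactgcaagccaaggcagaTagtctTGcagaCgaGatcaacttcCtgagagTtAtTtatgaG
Of the windows of 150 bases, the length of 1 read, along the Krt6a transcript, 18.7% occurred unchanged in another gene, mostly Krt6b. Of the Krt6b windows 18.8% occurred in Krt6a. The split of counts between the 2 genes is therefore uncertain, and their sum is given beside them. Krt16 shared 18.4% of its windows with the gene model Gm11597 and Krt8 shared 8.51% with the pseudogene Krt8-ps, whereas Krt17, Krt7, Krt18, Krt19, Krt20 and Krt80 shared none. Antisense gene models overlap Krt6a, Krt7 and Krt80, and a lincRNA model on the other strand overlaps Krt8. The strand used in counting is not given in the sources used here, so reads of these pairs cannot be told apart.

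Krt8 (chr15:101996698-102004482, minus strand) and Krt18 (chr15:102028180-102032027, plus strand) lie head to head, with 23698 bases between their starts, and Krt18 is thus a type I keratin inside the type II cluster. The type II genes Krt7 (chr15:101411043-101430313) and Krt80 (chr15:101347444-101370162) are on the same chromosome. Krt16 (chr11:100246091-100248902), Krt17 (chr11:100256217-100261029), Krt19 (chr11:100140810-100148665) and Krt20 (chr11:99428403-99438150) are in the type I cluster (all positions GRCm38). Promoter sequences (RefSeq, GRCm38.p6) matched 4 of the 10 keratins, namely Krt7, Krt8, Krt18 and Krt20. The bases upstream of the starts of Krt18 and Krt20 are shown because these genes had the largest fold changes that passed the test, Krt18 in cSCC and Krt20 in AK, and motif matches are in capitals.
Krt18 (chr15:102027966-102028179, plus strand): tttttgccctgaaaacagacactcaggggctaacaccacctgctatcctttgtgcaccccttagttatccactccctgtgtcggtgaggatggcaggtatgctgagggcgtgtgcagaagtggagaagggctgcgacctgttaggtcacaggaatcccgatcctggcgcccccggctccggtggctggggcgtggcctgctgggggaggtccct
Krt20 (chr11:99438154-99438403, minus strand): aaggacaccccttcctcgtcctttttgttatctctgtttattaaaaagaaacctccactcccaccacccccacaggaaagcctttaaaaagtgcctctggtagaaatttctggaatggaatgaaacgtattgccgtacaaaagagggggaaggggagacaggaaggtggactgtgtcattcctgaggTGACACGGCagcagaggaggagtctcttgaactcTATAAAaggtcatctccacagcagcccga
Motifs were searched on both strands of 300 bases, 250 before and 50 after each RefSeq start. RefSeq starts differ from those of the GENCODE gene positions given above, and the Krt18 stretch shown stops before its GENCODE start. The Krt20 window held a TATA box (TATAAA) from -29 to -24 and 1 match of an antioxidant response motif (TGACNNNGC) from -63 to -55, letters that 13.6% and 12.4% of 32851 promoters also held. The Krt18 window held no match to these, to AP-1 (TGANTCA, in 7.81% of promoters), to Sp1 (GGGCGG, in 35.7%) or to STAT (TTCNNNGAA, in 8.30%). The Krt7 window (chr15:101412153-101412452), wholly inside the gene's GENCODE span, held 4 Sp1 matches. The Krt8 window held a TATA match across its RefSeq start, which also lies inside the gene's GENCODE span. A match is a run of letters and not a measured binding site.

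Few of the 10 keratins passed the test in any comparison. A gene was called when the Benjamini-Hochberg adjusted p of edgeR's quasi-likelihood test was under 0.05 and the fold change was above 1.5 or below 0.67. Between AK and NS, 1 of 8 tested keratins was called, Krt20, which was higher. Of 11677 genes tested there, 2.26% were called higher and 2.38% lower. Between cSCC and NS, Krt18 and Krt19 were called higher, 2 of 8 tested, beside 11.7% higher and 7.65% lower of 12097 genes. Between cSCC and AK, Krt19 was called higher, 1 of 8 tested, beside 16% higher and 8.34% lower of 12032 genes. No keratin of the 10 was called lower by edgeR, DESeq2 or limma voom, and none with a negative fold change had an unadjusted p under 0.05. With 8 keratins tested, these counts do not set the family apart from other genes. Krt8 failed the filter on low counts in each comparison, Krt18 in the 2 comparisons with AK, and Krt20 in cSCC vs NS. The median log2 fold change of the tested keratins was 0.58 for AK vs NS, 1.14 for cSCC vs NS and 0.70 for cSCC vs AK, beside -0.04, 0.14 and 0.17 over all genes. The comparisons share samples with each other and are not independent.

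**Figure D1:**
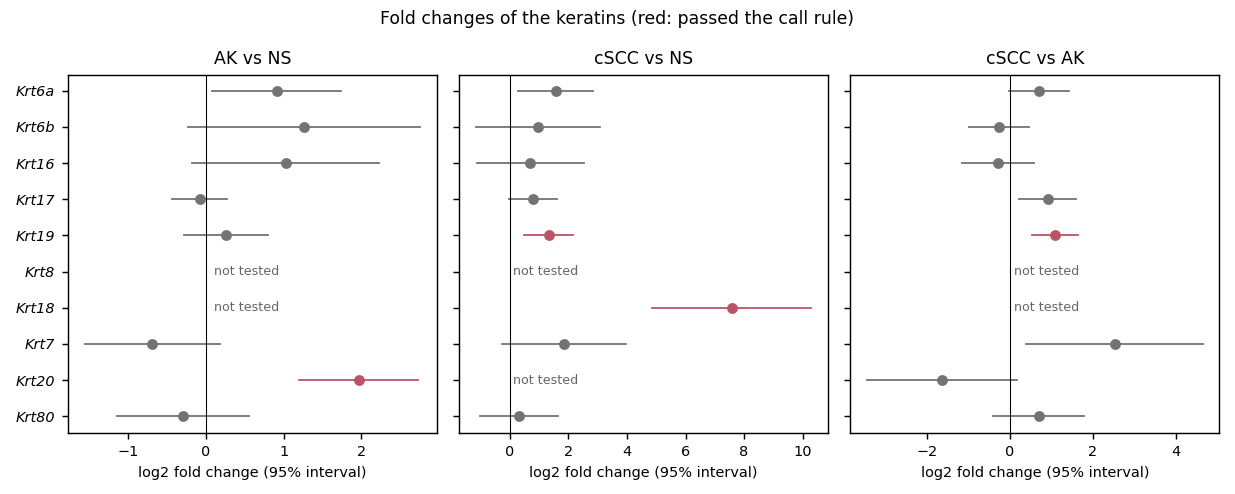
Log2 fold change (x axis) of each keratin (y axis) in the 3 comparisons, with points for the estimate and lines for the 95% interval from edgeR's quasi-likelihood fit. Red marks Krt20 in AK vs NS (1.97), Krt18 (7.58) and Krt19 (1.32) in cSCC vs NS, and Krt19 (1.10) in cSCC vs AK, and the x axes differ between panels.

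The stress keratins carried most counts of the family. Per kilobase of exon, the median level in NS was 1003 CPM for Krt17, 682 for Krt16, 283 for Krt6a and 253 for Krt6b, against 10.6 for Krt19 and under 1 for the other 5. In AK the order began with Krt16, at 2361 CPM per kilobase, followed by Krt6b at 1161, Krt17 at 1052 and Krt6a at 805. In cSCC Krt17 led again, at 2059 CPM per kilobase, before Krt16 at 1763, Krt6a at 1227 and Krt6b at 760. Neighbours among these 4 overlapped in their ranges over libraries in all 3 groups.

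Krt6a ranged from 257 to 3233 CPM in NS (median 684) and from 1625 to 2940 CPM in AK (median 1945). In cSCC replicates 18 to 21 it was 3386, 5116, 1419 and 2547 CPM. All AK fell inside the NS range, above 6 of the 8 NS, and 2 of the 4 cSCC lay above every NS and AK. On the log2 scale, Krt6a differed by 0.91 (SE 0.40) for AK vs NS and 1.56 (SE 0.60) for cSCC vs NS, with edgeR adjusted p of 0.164 and 0.0791. The difference between cSCC and NS passed the test with DESeq2 (1.57, adjusted p = 0.0353), with all 20 samples in 1 fit (1.498, edgeR adjusted p = 0.0257) and without NS replicate 8 (2.00, edgeR adjusted p = 0.0208). Its adjusted p reached 0.217 in the other leave-one-out fits. The highest among the other alternatives, 0.227, was that of Krt6a and Krt6b summed and not of Krt6a alone. For cSCC vs AK, Krt6a differed by 0.71 (SE 0.34, edgeR adjusted p = 0.144). Without cSCC replicates 20 and 21, the difference between cSCC and AK passed the test at 1.12 (SE 0.28, edgeR adjusted p = 0.0214). The adjusted p for cSCC vs AK ran from 0.0502 to 0.479 over leave-one-out fits and from 0.0214 to 0.665 over the other alternatives. The 0.665 was again that of the 2 genes summed.

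Krt6b ranged from 34.9 to 4127 CPM in NS (median 566) and from 2028 to 3859 CPM in AK (median 2595). In cSCC replicates 18 to 21 it was 3724, 1940, 1456 and 1387 CPM. The NS libraries were far apart and enclosed every AK and cSCC value, and 3 of the 4 cSCC were below every AK. Krt6b had a log2 fold change of 1.27 (SE 0.71) for AK vs NS, 0.97 (SE 0.99) for cSCC vs NS and -0.26 (SE 0.34) for cSCC vs AK, and the edgeR adjusted p was 0.280, 0.527 and 0.618. With Krt6a and Krt6b summed, the values were 1.10, 1.29 and 0.24, with edgeR adjusted p of 0.182, 0.227 and 0.665.

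Krt16, the type I partner of Krt6, was spread in the same way. It ranged from 159 to 5112 CPM in NS (median 1067) and from 2430 to 5045 CPM in AK (median 3695), and was 4848, 4115, 1403 and 1216 CPM in cSCC replicates 18 to 21. NS again enclosed both other groups, and cSCC replicates 20 and 21 lay below every AK. Krt16 had a log2 fold change of 1.02 (SE 0.57) for AK vs NS, 0.70 (SE 0.85) for cSCC vs NS and -0.28 (SE 0.40) for cSCC vs AK, with edgeR adjusted p of 0.277, 0.600 and 0.642. Without cSCC replicates 20 and 21, the sign against AK turned for Krt6b (0.12) and Krt16 (0.32), and neither passed the test.

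Within NS, replicates 1, 2, 4 and 9 held Krt6b at 34.9, 64.9, 168 and 88.1 CPM and Krt16 at 159, 194, 396 and 423 CPM. Replicates 5, 6, 7 and 8 held Krt6b at 1177, 965, 2406 and 4127 CPM and Krt16 at 1711, 2269, 4442 and 5112 CPM. The same libraries were thus low or high for both genes. Replicates 1, 2 and 9 also had the lowest summed keratinocyte markers (14050, 14753 and 18732 CPM) and the highest summed fibroblast markers (5955, 7692 and 4686 CPM) in NS. Replicate 4, with keratinocyte markers at 23830 CPM and fibroblast markers at 1776 CPM, did not share this. NS replicates 7 and 8 were highest for the summed genes of activated epidermis, at 13924 and 8398 CPM, beside 1413 to 4177 CPM in the other NS. The part of these tissue differences in the stress keratin levels was not tested. limma voom with sample weights, which gave the libraries unequal weight, called all of Krt6a (1.497), Krt6b (2.81) and Krt16 (1.96) higher in AK than in NS, with adjusted p of 0.0120, 0.0166 and 0.0273. Over the other alternatives and leave-one-out fits, the adjusted p reached 0.299 for Krt6a, 0.391 for Krt6b and 0.410 for Krt16.

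Krt17, which in mouse skin is also a constitutive keratin of the follicle, had a narrower range in NS. It ran from 1174 to 2507 CPM in NS (median 1555) and from 1327 to 1869 CPM in AK (median 1632), and was 3879, 3713, 1038 and 2672 CPM in cSCC replicates 18 to 21. The AK values lay within the NS range, and 3 cSCC were above every NS and AK while replicate 20 was below them all. Krt17 had a log2 fold change of -0.08 (SE 0.17) for AK vs NS, with a 95% interval from -0.43 to 0.27 and an edgeR adjusted p of 0.790. It was 0.79 (SE 0.38, edgeR adjusted p = 0.161) for cSCC vs NS and 0.92 (SE 0.32, edgeR adjusted p = 0.0506) for cSCC vs AK. Without cSCC replicate 20 the difference from AK passed the test at 1.19 (SE 0.27, edgeR adjusted p = 0.00851), and DESeq2 called it with all libraries (0.93, adjusted p = 0.00786). Over all alternatives the adjusted p for cSCC vs AK ran from 0.00321 to 0.336.

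**Figure D2:**
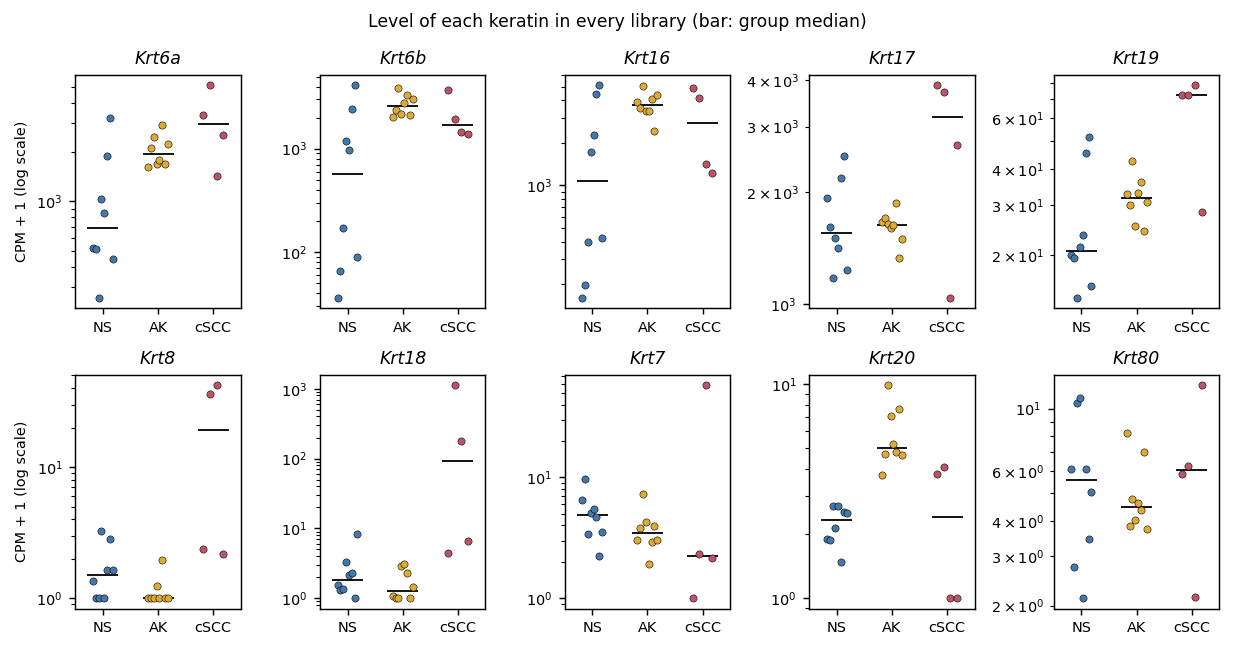
Level of each keratin in every library as CPM + 1 on a log scale (y axis, different in each panel) by group (x axis), with a point per library and a bar at the group median. Krt6b and Krt16 span the widest range in NS, Krt20 is higher in all 8 AK than in any NS, and Krt18 reaches 1112 and 175 CPM in 2 of the 4 cSCC.

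Ratios within a library do not depend on its scaling. The ratio of Krt6b to Krt6a counts was 0.0676 to 1.28 in NS (median 0.893), 1.13 to 1.57 in AK (median 1.28) and 0.379 to 1.10 in cSCC (median 0.785). The ratio of Krt16 to Krt17 counts was 0.0822 to 2.04 in NS (median 0.740), 1.83 to 3.08 in AK (median 2.15) and 0.455 to 1.35 in cSCC (median 1.18). For both ratios, every AK was above every cSCC, and NS spanned from the lowest value into the AK range. For Krt6b to Krt6a the groups were close, at 1.10 in cSCC replicate 18 and 1.13 in AK replicate 11. The split of counts between these 2 genes is also uncertain. Set against the basal keratins, Krt16 to Krt14 was 0.0429 to 0.504 in NS, 0.345 to 0.490 in AK and 0.304 to 0.417 in cSCC. Krt17 to Krt14 was 0.154 to 0.224 in AK and 0.252 to 0.916 in cSCC, again without overlap, with NS at 0.157 to 0.522. Krt6a to Krt5 was 0.183 to 1.94 in NS, 1.02 to 2.24 in AK and 1.57 to 3.49 in cSCC, and these ranges overlapped. No test was run on the ratios, and how many other pairs of genes separate AK from cSCC was not counted.

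**Figure D3:**
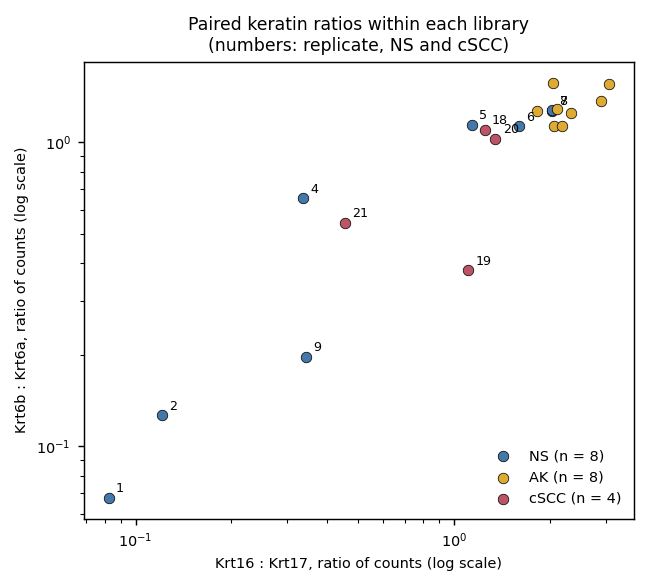
Ratio of Krt6b to Krt6a counts (y axis, log scale) against the ratio of Krt16 to Krt17 counts (x axis, log scale), with 1 point per library and replicate numbers beside NS and cSCC. The 8 AK sit together at the upper right, the 4 cSCC lie below them on both axes, and NS replicates 1, 2, 4 and 9 trail to the lower left.

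As a share of all keratin counts, the 10 keratins made up 11.4% to 43.0% in NS (median 21.6%), 33.7% to 47.7% in AK (median 42.4%) and 46.4% to 66.1% in cSCC (median 50.02%). Every cSCC was above every NS, and cSCC replicate 18, at 46.4%, fell within the AK range. Krt1 and Krt10, the pair of the differentiating layers, together took 10.6% to 29.5% in NS, 4.76% to 21.3% in AK and 0.152% to 3.32% in cSCC. Krt5 and Krt14, the basal pair, took 33.6% to 44.6%, 37.5% to 46.7% and 30.6% to 50.04%. Shares sum to the whole, so a lower share of Krt1 and Krt10 leaves a higher one to the rest.

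**Figure D4:**
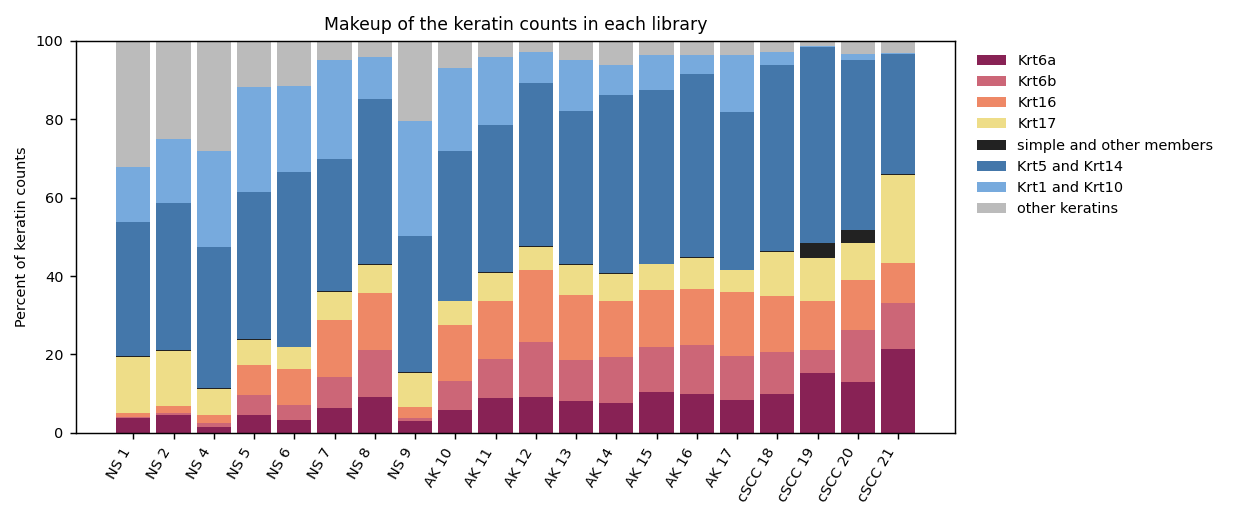
Makeup of the keratin counts (y axis, percent) in each of the 20 libraries (x axis), with stacked parts for Krt6a, Krt6b, Krt16, Krt17, the other 6 keratins described here, Krt5 with Krt14, Krt1 with Krt10, and all other keratins. Krt1 with Krt10 shrinks to at most 3.32% in cSCC, and the other 6 keratins are visible only in cSCC replicates 19 and 20.

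Krt19, a short type I keratin without the tail of other keratins, was called in both comparisons of cSCC, alone among the keratins tested in both. Krt8 failed the filter on low counts in both of these comparisons and Krt18 in the one with AK, so they could not be called there. Krt19 ranged from 13.2 to 50.8 CPM in NS (median 19.7) and from 23.4 to 41.6 CPM in AK (median 30.8), and was 71.5, 71.2, 77.4 and 27.3 CPM in cSCC replicates 18 to 21. The first 3 cSCC lay above every NS and AK, and replicate 21, which held heart muscle markers, lay within both ranges. The log2 fold change was 1.32 (SE 0.39, edgeR adjusted p = 0.0304) for cSCC vs NS and 1.10 (SE 0.26, edgeR adjusted p = 0.00933) for cSCC vs AK. For AK vs NS it was 0.25 (SE 0.26, edgeR adjusted p = 0.575). The call against AK held without each library in turn (adjusted p 0.00202 to 0.0285), and was lost with library size alone as scaling (0.90, adjusted p = 0.0642). The call against NS was lost without cSCC replicate 18, 19 or 20 and without NS replicate 1, 2, 4, 5, 6 or 9 (adjusted p 0.0508 to 0.0733), and held without cSCC replicates 20 and 21 together (1.51, adjusted p = 0.0415). It was also lost with library size alone as scaling. Over the alternatives other than leave-one-out fits, the adjusted p against NS reached 0.0857. The ratio of Krt19 to Krt14 counts was 0.00249 to 0.00513 in NS, 0.00305 to 0.00404 in AK and 0.00507 to 0.0188 in cSCC.

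Krt18, a type I keratin of simple epithelia, had the largest fold change and was high in 2 of the 4 cSCC. It was 3.47, 1112, 175 and 5.62 CPM in cSCC replicates 18 to 21, from 5, 2531, 154 and 34 counts. In NS it ranged from 0 to 7.23 CPM (median 0.827) and in AK from 0 to 2.11 CPM (median 0.266). All 4 cSCC were above every AK, while replicates 18 and 21 lay within the NS range because NS replicate 9 held 34 counts. The log2 fold change for cSCC vs NS was 7.58 (SE 1.27, edgeR adjusted p = 0.00228), with a 95% interval from 4.86 to 10.3. It was 5.20 (SE 1.08, adjusted p = 0.00949) without cSCC replicate 19, 7.78 (SE 1.35, adjusted p = 0.00352) without replicate 20 and 8.34 (SE 1.14, adjusted p = 0.00152) without replicates 20 and 21. Each of these fits kept replicate 19 or 20, the 2 high libraries, and no fit left out both. Without NS replicate 9, Krt18 no longer passed the filter on low counts and was not tested. Nothing is therefore read from its place among the tested genes.

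Krt8, the type II partner of Krt18, was high in the same 2 libraries. It was 1.39, 35.2, 41.0 and 1.16 CPM in cSCC replicates 18 to 21, from 2, 80, 36 and 7 counts. NS ranged from 0 to 2.25 CPM with 3 of 8 libraries at 0, and AK from 0 to 0.958 CPM with 6 of 8 at 0. Every cSCC was above every AK for Krt8 and Krt18, a pattern of ranges that 2.50% of the 17646 genes with a count in these libraries showed, and NS overlapped with cSCC for both. A count of 0 allowed up to 3.78 CPM in AK replicate 12, more than Krt8 in cSCC replicates 18 and 21 and Krt18 in replicate 18. Krt8 was tested only when no filter was applied, giving 4.66 (SE 0.99, edgeR adjusted p = 0.00704) for cSCC vs NS and 6.44 (SE 1.13, edgeR adjusted p = 0.00270) for cSCC vs AK, where the fitted size depends on the prior count. The ratio of Krt18 to Krt8 counts was 31.6 in cSCC replicate 19 and 4.28 in replicate 20, so the pair was not in 1 proportion.

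The libraries with high Krt8 and Krt18 differed in their other tissue markers. In replicate 20 all 12 lung markers had counts, with Sftpc, the surfactant protein C of alveolar cells, at 22389 CPM and Scgb1a1, a club cell secretory protein, at 6670 CPM. In replicate 19 the lung markers summed to 23.3 CPM, with 6 of 12 at 0, Scgb1a1 among them, and Sftpc at 3.52 CPM. Lung markers were thus no higher there than in NS (72.1 to 148 CPM) or AK (74.1 to 141 CPM), while Krt18 was highest of all libraries. The 8 mesothelium markers summed to 22.4 CPM in replicate 19, 78.5 CPM in replicate 20 and 49.9 CPM in replicate 21, and to 0 to 23.6 CPM in NS. The 8 mammary luminal markers summed to 155 CPM in replicate 19, of which Areg, a growth factor also made by keratinocytes, was 154 CPM, and 6 of 8 were at 0. Keratinocyte markers summed to 20102 CPM in replicate 19 and 6909 CPM in replicate 20.

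**Figure D5:**
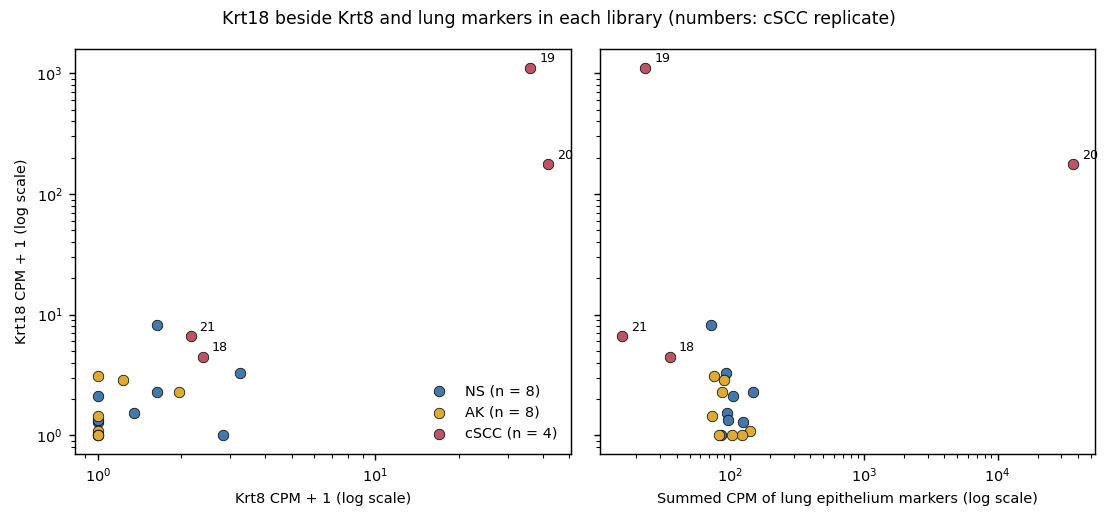
Krt18 (y axes, CPM + 1, log scale) against Krt8 (left x axis, CPM + 1, log scale) and against the summed CPM of 12 lung epithelium markers (right x axis, log scale), with 1 point per library and replicate numbers beside cSCC. Replicates 19 and 20 are far above the rest for Krt18 and Krt8, and only replicate 20 is far right for the lung markers.

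Krt7, a type II keratin of ducts, lung and bladder, was high in 1 library. It was 0, 1.32, 56.9 and 1.16 CPM in cSCC replicates 18 to 21, from 0, 3, 50 and 7 counts. NS ranged from 1.22 to 8.69 CPM (median 3.86) and AK from 0.905 to 6.31 CPM (median 2.44). The high value was in replicate 20, with the lung markers, and the other 3 cSCC lay near or below the lowest NS. The count of 0 in replicate 18 allowed up to 2.08 CPM, so it is not shown to lie below NS. Krt7 had a log2 fold change of 1.85 (SE 0.99, edgeR adjusted p = 0.204) for cSCC vs NS and 2.53 (SE 1.00, edgeR adjusted p = 0.0759) for cSCC vs AK. Without replicate 20 it turned to -2.06 (SE 0.81, adjusted p = 0.0900) and -1.33 (SE 0.81, adjusted p = 0.240). For AK vs NS it was -0.69 (SE 0.42, edgeR adjusted p = 0.311).

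Krt20, the type I keratin of Merkel cells and gut epithelium, was the only one of the 10 called between AK and NS. It ranged from 0.478 to 1.70 CPM in NS (median 1.31) and from 2.77 to 8.83 CPM in AK (median 4.03), from 3 to 7 and from 7 to 37 counts. Every AK was above every NS, as for 0.259% of the 17761 genes with a count in these libraries. Krt20 passed the filter on low counts through the AK libraries, so nothing is read from its place among the tested genes. The edgeR fit gave a log2 fold change of 1.97 (SE 0.37, edgeR adjusted p = 0.0151), with a 95% interval from 1.20 to 2.73. It was 1.97 (SE 0.42, edgeR adjusted p = 0.0236) with no filter. The call held without each library in turn (adjusted p 0.00670 to 0.0352), and was lost when all 20 samples shared 1 fit (1.99, SE 0.57, adjusted p = 0.123). In cSCC replicates 18 to 21 it was 2.78, 3.08, 0 and 0 CPM, where a count of 0 allowed up to 3.41 CPM in replicate 20 and 0.496 CPM in replicate 21. Replicates 18 and 19 were above every NS, whereas the 0 counts are not shown to lie below NS, whose lowest library was at 0.478 CPM. The log2 fold change for cSCC vs AK was -1.64 (SE 0.85, edgeR adjusted p = 0.170).

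Of the 8 Merkel cell markers other than keratins, 3 were tested between AK and NS, and none of these 3 was called by edgeR (1 at an unadjusted p under 0.05) or DESeq2, and limma voom called 1 higher. Their summed level was 19.6 to 50.1 CPM in NS (median 32.8) and 33.7 to 62.1 CPM in AK (median 45.7), and the ranges overlapped. Atoh1, the factor that specifies Merkel cells, was at 0 in all 20 libraries, and 2 to 4 of the 8 markers were at 0 in NS and 3 to 5 in AK. In cSCC, 2 of 3 tested markers were called lower by edgeR and DESeq2 and none by limma voom, against both NS and AK (3 against NS and 2 against AK at an unadjusted edgeR p under 0.05). These were Chga, a secretory granule protein (-7.17 against NS and -6.65 against AK), and the transcription factor gene Isl1 (-7.18 and -7.23), both at 0 in all 4 cSCC, so that the fitted sizes depend on the prior count. The median log2 fold change of the 3 tested markers was -7.17 against NS and -6.65 against AK. The summed level of all 8 was 120, 46.6, 77.4 and 9.92 CPM in cSCC replicates 18 to 21. A sum follows its most abundant genes, and only replicate 21 was below every NS and AK. Sox2, of the same list, was 1.39, 9.23, 19.3 and 1.16 CPM in cSCC replicates 18 to 21 and at most 1.74 CPM in NS. Without cSCC replicates 20 and 21, edgeR called Chga lower and Tmem45b higher (1.77) of 4 tested against NS, and none of 4 against AK (3 at an unadjusted p under 0.05).

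Krt80 ranged from 1.13 to 9.90 CPM in NS (median 4.57) and from 2.74 to 7.18 CPM in AK (median 3.49), and was 4.86, 5.27, 1.14 and 11.1 CPM in cSCC replicates 18 to 21. The groups overlapped, and only cSCC replicate 21 lay above every other library. The log2 fold change was -0.30 (SE 0.41), 0.33 (SE 0.62) and 0.70 (SE 0.52) from NS to AK, from NS to cSCC and from AK to cSCC, and the edgeR adjusted p was 0.690, 0.752 and 0.341. The 95% intervals reached from -1.15 to 0.56, from -0.999 to 1.66 and from -0.41 to 1.80, so changes within these limits were not excluded.

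Across the 20 libraries, the keratins most alike in rank were Krt6b and Krt16 (Spearman's rho 0.914), Krt6a and Krt16 (0.80) and Krt6a and Krt6b (0.788). Krt19 followed Krt6a (0.776) and Krt16 (0.755), Krt8 followed Krt18 (0.679), and Krt17 followed Krt6a (0.728) more than Krt16 (0.489). Over the 16 NS and AK libraries alone, Krt19 and Krt16 had a rho of 0.929. Of genes outside the 10, Sprr1b, a cornified envelope precursor of activated epidermis, was most like Krt16 (0.943), before Ptges (0.916) and Xrn2 (0.913). Gm5414 (0.902), the desmosomal cadherin Dsg3 (0.893) and Fhl2 (0.890) were most like Krt6a. Mrpl43, Ccdc94 and Nop2 were most like Krt17 (0.886, 0.833 and 0.809), and Krtcap3, Evl and Sin3b most like Krt19 (0.907, 0.887 and 0.869). For Krt18 they were Pramef8, Ccr7 and Zdhhc12 (0.813, 0.796 and 0.773), and for Krt8 Hist1h1d, Kdm8 and Adprh (0.823, 0.806 and 0.798). The points share libraries and depth, the most alike were picked from 12847 genes, and the values are descriptions only.

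Other keratins of the epidermis were called in every comparison. Of 13 basal, suprabasal and mucosal keratins tested, none was called higher and 4 lower in AK than in NS, namely Krt79 (-1.26), Krt77 (-4.79), Krt23 (-1.29) and Krt2 (-2.99). Between cSCC and NS, 2 were higher and 7 lower of 13, with Krt77 (-8.67), Krt79 (-4.67) and Krt10 (-4.04) falling and Krt13, a keratin of squamous mucosa, rising (2.97). From AK to cSCC, 2 rose and 4 fell of 12, with Krt13 at 3.50. Krt13 was 11.8, 30.8, 5.69 and 111 CPM in cSCC replicates 18 to 21, highest in replicate 21, and was still called without replicates 20 and 21 (2.00 against NS and 2.47 against AK). Without these, 4 of this list were lower against NS and 2 against AK, of 13. The median log2 fold changes of this list were -0.52, -2.59 and -0.77. Of the companion layer and root sheath keratins, none of 3 was called in AK vs NS by edgeR (2 at an unadjusted p under 0.05, 0 by DESeq2 and 1 by limma voom), Krt27 was lower among 7 in cSCC vs NS (-8.84) and Krt75 was higher among 3 in cSCC vs AK (1.72). Neither call held without cSCC replicates 20 and 21, where only Krt42 was called, as higher (1.30 against NS and 0.82 against AK).

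Among cytokines, growth factors and receptors known to raise stress keratins, none of 12 tested was called in AK vs NS by edgeR, with 3 at an unadjusted p under 0.05 and 1 called higher by both DESeq2 and limma voom. In cSCC vs NS, 4 were higher and 3 lower of 13, led by Il1b (5.24), the betacellulin gene Btc (-3.58), Il1r1 (-1.51) and Hbegf (1.80). From AK to cSCC, 5 rose and 4 fell of 15, led by Il1b (4.03), Btc (-2.39), Il24 (3.46) and Osmr (-1.10). Among transcription factors that act on keratin genes, 2 of 17 tested were higher in AK than in NS and 0 lower, Ets1 (0.91) among the 2. DESeq2 called 3 higher and 1 lower there. Between cSCC and NS, 4 were higher and 3 lower of 18, led by the AP-1 members Junb (1.46) and Fosl2 (-1.23), then Ets1 (1.28) and Nfe2l2 (1.11). Against AK, 2 were higher and 4 lower of 19, led by Fosl2 (-1.67), Junb (1.64), Fosl1 (3.58) and Klf4 (-1.42). Without cSCC replicates 20 and 21, 6 ligands and receptors were higher and 2 lower of 13 against NS, and 7 higher and 2 lower of 16 against AK. Of 19 factors, 1 was higher and 1 lower against NS, where Junb (0.91) and Ets1 (0.26) were no longer called, and 3 were higher and 1 lower against AK, where Klf4 was no longer called. The median log2 fold changes were 0.32, 0.79 and 0.10 for the ligands and receptors and 0.06, 0.11 and -0.10 for the factors.

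Of the proteins that link or bind keratin filaments, the small heat shock gene Hspb1 fell (-1.16) in AK, 1 of 17 tested. Between cSCC and NS, 5 were higher and 3 lower of 17, led by the plakin Ppl (-2.49), the Krt18-binding adaptor Tradd (2.13), the plakin Dst (-1.51) and the 14-3-3 sigma gene Sfn (1.54). Against AK, 6 were higher and 4 lower of 16, led by Tradd (2.37), Ppl (-2.03), Sfn (1.95) and Hspb1 (1.79). Of 15 tested genes of activated epidermis, none was called in AK vs NS by edgeR (4 at an unadjusted p under 0.05) or DESeq2, and limma voom called 7 higher. Itga5 (2.68) and S100a7a (3.36) were higher in cSCC than in NS, and 6 were higher in cSCC than in AK, led by Lcn2 (2.09), S100a9 (2.25), S100a7a (1.65) and Sprr2h (1.07). Without cSCC replicates 20 and 21, 5 linkers were higher and 1 lower of 17 in both comparisons, and Dst was no longer called. Of the activated epidermis genes, 4 of 15 then stayed higher against AK and none of 16 was called against NS by edgeR, with 7 at an unadjusted p under 0.05, S100a7a being called in neither. The median log2 fold changes of the linkers were -0.35, 0.02 and 0.41, and those of the activated epidermis genes 0.56, 1.28 and 0.59.

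Few genes that accompany simple epithelial keratins were called higher. None of 10 tested was called in AK vs NS by edgeR, although 8 had an unadjusted p under 0.05, and limma voom called 1 higher and 4 lower and DESeq2 1 each way. In cSCC vs NS, 1 was higher and 4 lower of 12, with the transcription factor gene Elf3 rising (2.62) and Cdh1 (-1.61) and Spint1 (-1.24) among those falling. In cSCC vs AK only Cdh1 was called, and it fell (-1.43). Without cSCC replicates 20 and 21, 1 was higher and 2 lower of 12 against NS. The median log2 fold changes were -0.48, -0.79 and -0.59. Of 12 cell cycle genes, Ccna2 (0.86) and Pcna (0.63) were higher in AK than in NS. Rrm2 (1.91), Aurka (1.77) and Plk1 (1.73) were higher in cSCC than in NS, while from AK to cSCC 3 rose and 1 fell. Against NS, 4 of the 12 were higher without cSCC replicates 20 and 21, and against AK 3 were higher and 0 lower.

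Markers of several cell types differed between cSCC and the other groups. Endothelial markers were higher for 7 of 8 in cSCC vs NS and 8 of 8 in cSCC vs AK (2 and 3 with limma voom), with sums of 114 to 681 CPM in cSCC and 35.5 to 118 CPM in NS. The sum was highest in cSCC replicates 21 (681 CPM) and 20 (272 CPM), and was 114 and 135 CPM in replicates 18 and 19. Without replicates 20 and 21, edgeR called none of the 8 in either comparison, with 1 at an unadjusted p under 0.05 against NS and 4 against AK. Sebaceous markers were lower for 4 of 7 and 5 of 7 (0 and 5 with limma voom), with sums of 698 to 3347 CPM in cSCC and 1278 to 5260 CPM in NS. They were lower for 5 of 7 and 6 of 7 without cSCC replicates 20 and 21. Keratinocyte markers were higher for 1 and lower for 5 of 11 in cSCC vs NS and lower for 6 of 11 in cSCC vs AK, and without cSCC replicates 20 and 21 higher for 1 and lower for 3 in both. Fibroblast markers were called for none of 6 in cSCC vs NS and 1 of 6 in cSCC vs AK, and leukocyte markers for none of 6 and none of 5, with 0 at an unadjusted p under 0.05 and 0 called by DESeq2 or limma voom where edgeR called none. Skeletal muscle markers summed to 722 to 8564 CPM in NS, 26.7 to 5574 CPM in AK and 551 to 9434 CPM in cSCC, and hair follicle markers to 175 to 1210 CPM, 161 to 400 CPM and 254 to 455 CPM. The part of these cell types in the keratin levels was not tested.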

How the data were processed

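RNA-seq counts of 20 mouse skin tissues were analysed. The authors deposited raw counts per gene symbol, not normalized. The submitters' processing notes name Trimmomatic 0.36, HISAT2 2.0.5 and featureCounts 1.5.2 with builds hg19 and mm9, whereas the paper's methods name HISAT2 on GRCm38 and StringTie. Counting errors from another build, or from reads that fit several genes, would alter single keratins, Krt6a and Krt6b first. Groups were taken from each sample's label. No 2 groups could be paired.

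Pairs of groups were compared with edgeR 4.0.16 (R 4.3.3): TMM factors, filterByExpr, quasi-likelihood test, Benjamini-Hochberg adjustment over all genes tested. Calls needed an adjusted p under 0.05 together with the fold change limits given above, which are the study's. Standard errors are the log2 fold change over the square root of F. Rank correlations used log2(CPM + 1). The fit was tested on simulated data. Positions and exon lengths are from GENCODE M21, and promoters from RefSeq. Python 3.11.15, numpy 2.4.6, pandas 2.3.3, scipy 1.17.1 and Biopython 1.88 were used.

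The 10 keratins and the gene and marker lists were chosen with earlier results of these data known. All 10 keratins are named, with up to 4 called genes of smallest adjusted p per list and comparison, and the 3 genes most alike in rank to Krt6a, Krt16, Krt17, Krt8, Krt18 and Krt19. Genes of the marker lists are named where they stand apart in a library that a result rests on. Some list genes that this rule would name are withheld and not reported here. Alternatives were other scalings (library size alone, upper quartile), DESeq2 1.42.0, limma 3.58.1 voom, filters on counts, no fold change limit, all 20 samples in 1 fit, leaving out lung and muscle marker genes, cSCC replicates 20 and 21, and each sample in turn. Removing haemoglobin genes and summing Krt6a with Krt6b were added after the data were seen.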

Additional observations from a re-analysis of the deposited data

Results flagged for a closer look

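Over the 10 keratins in 3 groups, 30 sets of log2(CPM + 1) values were tested for a library far from the rest with Dixon's criterion, which chance meets in about 1 in 20 sets, and 2 met it. Krt8 in AK was highest in replicate 15, at 0.958 CPM, from 6 counts, while 6 of the other 7 AK were at 0. Krt19 in cSCC was lowest in replicate 21, at 27.3 CPM, against 71.2 to 77.4 CPM in the other 3, and the same library held heart muscle markers at 58880 CPM. Without it, the log2 fold change of Krt19 was 1.57 from NS and 1.28 from AK.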

How the results depend on the processing

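The number of keratins called in AK vs NS was 4 with limma voom, 0 with at least 10 counts in every sample, where Krt20 was not tested, 0 with all 20 samples in 1 fit, and 1 to 2 when each sample was left out, Krt6a being added without NS replicate 8 (1.37). In cSCC vs NS it was 1 with library size alone, 1 with at least 10 counts in every sample, 3 with DESeq2, no filter on low counts, all 20 samples in 1 fit, or no cSCC replicates 20 and 21, and 0 to 3 when each sample was left out, 0 without NS replicate 9 and 3 without NS replicate 8. In cSCC vs AK it was 0 with library size alone, 2 with DESeq2, 3 with no filter on low counts, 2 with at least 10 counts in every sample, 4 with all 20 samples in 1 fit, 2 without haemoglobin genes, 3 without cSCC replicates 20 and 21, and 1 to 3 when each sample was left out. Leaving out cSCC replicate 18 gave 3, and replicates 19, 20 or 21 gave 2 each. The cause was not tested beyond the fewer genes or samples each setting keeps.

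The sign turned for Krt17 in AK vs NS with voom (0.040) and without NS replicate 8 (0.014; leave-one-out range -0.14 to 0.014). In cSCC vs NS it turned for Krt7 with voom (-0.32), without cSCC replicates 20 and 21 (-2.36) and without replicate 20 (-2.06; leave-one-out range -2.06 to 2.26), and for Krt80 with library size alone (-0.047), voom (-0.036) and without replicate 21 (-0.28; range -0.28 to 0.60). In cSCC vs AK it turned for Krt6b (0.12) and Krt16 (0.32) without replicates 20 and 21, for Krt6b summed with Krt6a (0.24), for Krt7 without replicates 20 and 21 (-1.67) and without replicate 20 (-1.33; range -1.33 to 2.93), and for Krt80 without replicate 21 (-0.030; range -0.030 to 0.98). None of these values passed the test. Of the single keratins' other fits, 227 of those with another setting and 299 of those without a sample kept direction and call. No paired analysis was possible because no label ties a tissue to its mouse. Depth limited Krt7, Krt8, Krt18, Krt20 and Krt80, which had under 100 counts in nearly every library.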
